A study of Mus musculus with 6 samples.

Results

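The Frizzled receptors are the family of cell-surface proteins that bind Wnt ligands. All 10 mouse genes of the family, Fzd1 to Fzd10, were taken by symbol from a table of read counts for 23478 genes, and all 10 were present. They were compared between smooth muscle and epithelium sorted from the mouse trachea at embryonic day 13.5, with 3 libraries from each population. All 6 libraries came from embryos labelled Bmp4 f/f; gamma SMA eGFP and titled as controls, so floxed Bmp4 alleles and the reporter were shared by both groups, and the labels name no Cre. The reporter marks cells that use gamma smooth muscle actin; muscle was collected by its green fluorescence and epithelium by an APC-coupled antibody to the surface protein Epcam. The labels do not say whether the libraries came from separate embryos or pools, so p-values measure only the spread between these libraries, which may be technical.

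A Frizzled protein spans the membrane several times and carries an outer cysteine-rich domain that holds the lipid of a Wnt ligand. With the co-receptors Lrp5 or Lrp6 and the inner adaptor Dishevelled, a Wnt-bound Frizzled leads to stabilised beta-catenin, which acts with Tcf and Lef proteins on transcription; with other partners, Frizzled proteins set planar cell polarity and cell movement. In the developing trachea, Wnt ligands released by the epithelium are known to be needed for the normal cartilage and muscle around it.

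By sequence the family falls into Fzd1, Fzd2 and Fzd7, then Fzd5 and Fzd8, then Fzd3 and Fzd6, then Fzd9 and Fzd10, with Fzd4 nearest to Fzd10. In pairwise alignments of the GENCODE M21 coding sequences, Fzd1 and Fzd2 shared 81.3% of aligned bases, Fzd2 and Fzd7 78.5%, Fzd1 and Fzd7 78.1%, Fzd5 and Fzd8 75.4%, Fzd9 and Fzd10 69.7% and Fzd3 and Fzd6 62.0%. The lowest value was 53.7%, for Fzd3 and Fzd9. The receptors whose reads could be mistaken for each other are therefore Fzd1, Fzd2 and Fzd7. The longest stretch that Fzd1 and Fzd2 share exactly is 47 bases, all within one exon, and it is shown here with the aligned bases of 4 other members because it marks the closest point between the genes. Each line is 5′ to 3′ on the gene's own strand, and capitals mark bases that differ from Fzd1.
Fzd1: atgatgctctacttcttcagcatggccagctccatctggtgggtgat
Fzd2: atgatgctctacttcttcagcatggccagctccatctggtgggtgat
Fzd7: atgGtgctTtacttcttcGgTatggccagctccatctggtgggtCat
Fzd5: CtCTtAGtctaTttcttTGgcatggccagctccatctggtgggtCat
Fzd6: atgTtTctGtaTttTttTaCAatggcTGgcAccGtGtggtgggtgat
Fzd3: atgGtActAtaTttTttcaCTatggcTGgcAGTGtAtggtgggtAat
In the GRCm38 build, these stretches lie in coding exons at chr5:4756331-4756377 (minus strand) for Fzd1, chr11:102605740-102605786 (plus) for Fzd2 and chr1:59483974-59484020 (plus) for Fzd7. Those of the others are at chr1:64735597-64735643 (minus) for Fzd5, chr15:39031299-39031345 (plus) for Fzd6 and chr14:65235401-65235447 (minus) for Fzd3. Fzd2 has no difference from Fzd1 in this window, whereas Fzd7 has 5, Fzd5 9, Fzd6 13 and Fzd3 15.

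A second stretch of 47 bases is identical in Fzd1 (chr5:4756964-4757010, minus strand) and Fzd7 (chr1:59483344-59483390, plus strand), and Fzd2 (chr11:102605101-102605147, plus strand) differs from it at 3 bases. It is shown because it is the only other shared run of that length in the family.
Fzd1 and Fzd7: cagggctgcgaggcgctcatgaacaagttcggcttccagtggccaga
Fzd2: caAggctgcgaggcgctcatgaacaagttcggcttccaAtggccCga
No run of 50 bases was shared by any of the 45 pairs of Frizzled transcripts compared, in transcript orientation. 6 of the genes consist of a single exon, namely Fzd1, Fzd2, Fzd7, Fzd8, Fzd9 and Fzd10. Exons of Fzd6 and Fzd5 overlap exons of annotated genes on the other strand, by 152 bases (Gm26704) and 1233 bases (Gm38058), and the library kit keeps no strand.

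Library totals ran from 11847432 counts in epithelium replicate 2 to 54848820 in epithelium replicate 1. Levels are given as CPM, counts normalised to sequencing depth, after TMM scaling, which lines libraries up on genes that differ little. Olfactory and vomeronasal receptor genes, 1456 genes of sensory neurons, summed to 883 CPM in muscle library 2 and to 1817 and 636 CPM in epithelial libraries 2 and 3, against 7.26 to 37.8 in the other 3. Those 3 libraries thus stood apart by a background of counts in genes of other tissues. The sort matched its labels: Actg2, the reporter's own actin, measured 1876 ± 1287 CPM (SD, n = 3) in muscle against 2.17 ± 0.496 in epithelium, and Epcam 1.53 ± 0.797 against 598 ± 96.9. The spread of Actg2 in muscle came from replicate 2, at 403 CPM against 2438 and 2786. The 10 smooth muscle markers summed were also lower in that library, at 4137.1 CPM against 16896.3 and 17828.5 in muscle replicates 1 and 3. All 10 smooth muscle markers and all 10 epithelial markers passed the test in their own direction.

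Fzd6 was the 1 receptor of the 10 that passed the test, and it was lower in muscle; 9 did not pass. The call was an adjusted p below 0.05 by the quasi-likelihood method of edgeR. Of all 19375 genes tested, 10.7% passed, 6.58% as higher in muscle and 4.11% as higher in epithelium. At an unadjusted p under 0.05, 4 receptors were called (Fzd1, Fzd2, Fzd5 and Fzd6), against 21.7% of all genes. The libraries of the groups did not overlap for 7 receptors, with muscle above in 3 (Fzd1, Fzd2, Fzd7) and epithelium above in 4 (Fzd3, Fzd5, Fzd6, Fzd10). Among all genes, 26.9% did not overlap, 16.4% with muscle above and 10.5% with epithelium above. The median log2 fold change of muscle over epithelium was -0.29 for the 10 receptors and -0.10 for all genes. The all-gene median moved to -0.20 with size factors of the DESeq2 type and to -0.33 with library totals alone, and the share of calls that were higher in muscle moved from 61.5% to 55.8% and 42.0%.

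**Figure D1:**
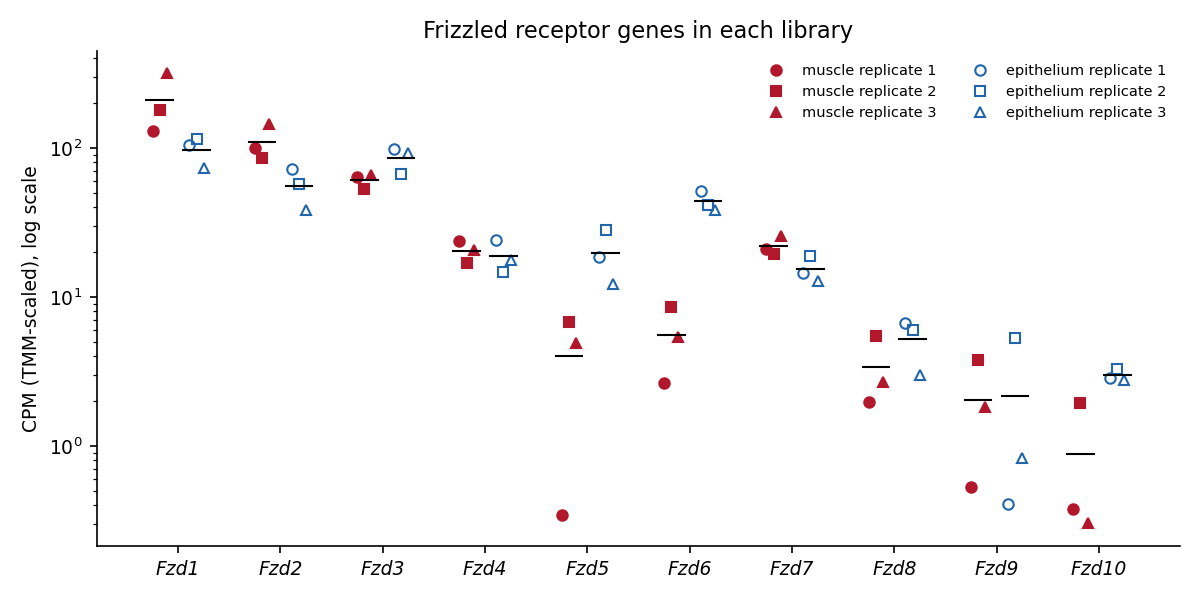
CPM (log axis) of each Frizzled gene in the 6 libraries, with a bar at each group mean of 3. The 3 muscle points of Fzd6 lie between 2.66 and 8.49 CPM and the 3 epithelial points between 38.0 and 51.4, while those of Fzd4 overlap.

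Fzd6 acts mainly in planar polarity, for example in the orientation of hairs. In the order of the replicate numbers, it measured 2.66, 8.49 and 5.38 CPM in muscle, against 51.4, 41.5 and 38.0 in epithelium. Every epithelial library was above every muscle library. The group means were 5.51 ± 2.92 and 43.6 ± 6.93 CPM (SD, n = 3), a 7.92-fold difference, or -2.99 ± 0.41 on the log2 scale (SE; edgeR adjusted p = 0.0023). Identifiers in the file header, if read as dates, set the 2 libraries numbered 2 apart from the other 4. The header does not say what these identifiers are, so the split is an assumption. Within those 4 libraries the log2 fold change was -3.54 (adjusted p = 0.0046), and the 2 set apart measured 8.49 in muscle and 41.5 in epithelium. Without the 3 libraries of high background it was -3.85 (adjusted p = 0.0037), a fit chosen after seeing the data in which the lone epithelial library is assumed to vary like the others. Over the 17 alternative fits the value ran from -3.85 to -2.65, with the same call in each. In muscle the level of Fzd6 was 6.10%, 19.4% and 12.3% of its epithelial mean, whereas the median epithelial marker stood at 0.145%, 0.738% and 0.687% of its own. The counts behind the muscle values were 70, 170 and 213, and their source was not tested.

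Fzd3, the receptor nearest to Fzd6 and known for guiding axons, did not pass the test. It measured 63.2, 52.7 and 65.7 CPM in muscle and 97.5, 67.2 and 91.8 in epithelium, so the groups did not overlap, by a gap between 65.7 and 67.2. The log2 fold change was -0.50 ± 0.24 (adjusted p = 0.28). Within the 4 libraries of the later identifier it was -0.63 (adjusted p = 0.047), past the threshold. In counts of the same library, which need no scaling, the ratio of Fzd3 to Fzd6 was 23.8, 6.21 and 12.2 in muscle and 1.90, 1.62 and 2.41 in epithelium. Both genes had their higher means in epithelium, though only Fzd6 passed. The ratio was larger in every muscle library than in any epithelial one, and it was not tested. Their summed level was 66.1 ± 4.95 CPM in muscle and 129 ± 20.1 in epithelium.

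**Figure D2:**
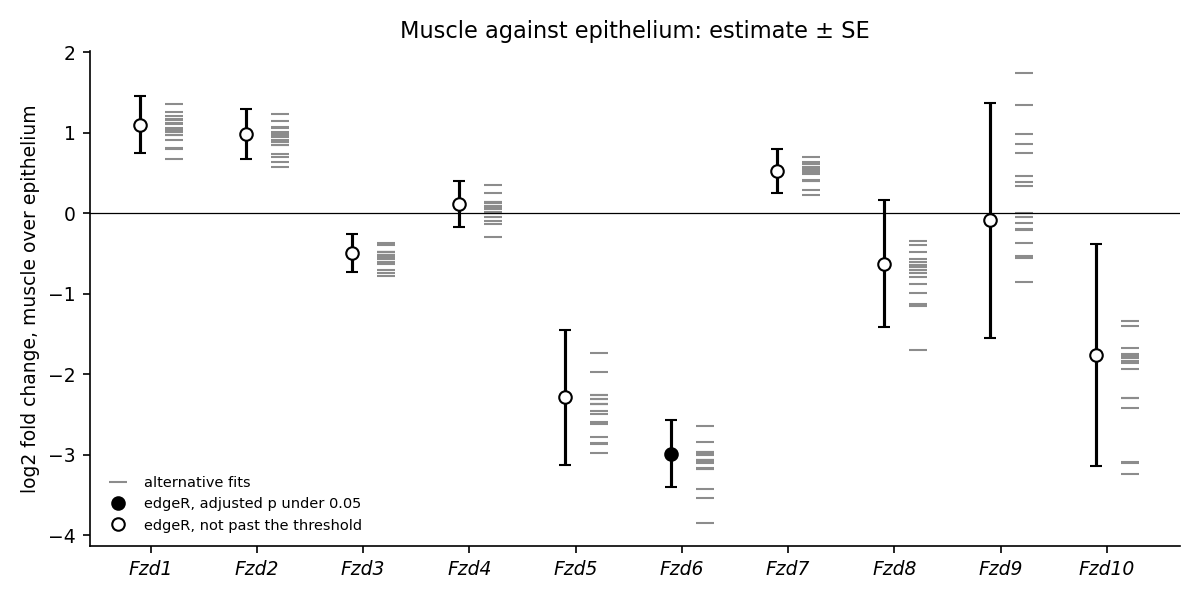
Log2 fold change of muscle over epithelium for each receptor, with its SE, beside grey marks for the alternative fits. Fzd6 at -2.99 is the filled point past the threshold, and the marks of Fzd4 and Fzd9 fall on both sides of 0.

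Fzd1 and Fzd2, close relatives that relay Wnt to beta-catenin in many embryonic tissues, had their higher means in muscle. Fzd1 measured 130.3, 178 and 316 CPM in muscle and 105, 115 and 72.9 in epithelium. The lowest muscle library was above the highest epithelial one, with muscle replicate 3 well above the rest. The means were 208 ± 96.5 and 97.3 ± 21.7 CPM, and the log2 fold change of 1.10 ± 0.36 did not pass (adjusted p = 0.092). Without muscle replicate 3 it was 0.67 (adjusted p = 0.38). Fzd2 measured 99.2, 85.6 and 145 CPM in muscle and 72.2, 56.7 and 38.4 in epithelium. Its groups did not overlap either, and the fold change on the log2 scale was 0.98 ± 0.31 (adjusted p = 0.086). Leaving out muscle replicate 2 moved Fzd2 to 1.14 (adjusted p = 0.042), past the threshold, while it was 0.74 without muscle replicate 3 (adjusted p = 0.33), 0.64 without epithelium replicate 3 (adjusted p = 0.41) and 0.57 without the 3 libraries of high background (adjusted p = 0.27). Fzd1 and Fzd2 stood at 1.26 and 1.07 on the log2 scale within the later identifier (adjusted p = 0.11 and 0.098).

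Both genes were also read in epithelium, at 35.0% to 55.0% (Fzd1) and 35.0% to 65.7% (Fzd2) of their muscle mean. The median smooth muscle marker stood in the same libraries at 0.723% to 1.99% of its own. Those markers cover smooth muscle alone, and the source of the epithelial reads was not tested. Fzd7, the other receptor of this group and one known from stem cells, measured 20.9, 19.5 and 25.8 CPM in muscle and 14.5, 18.8 and 12.8 in epithelium. These values did not overlap, though muscle replicate 2 and epithelium replicate 2 were close, and the log2 fold change was 0.52 ± 0.27 (adjusted p = 0.34). Summed over Fzd1, Fzd2 and Fzd7, the level was 250, 283 and 487 CPM in muscle and 191, 190 and 124 in epithelium.

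Markers of other mesenchymal cells moved with the same direction. Summed over 5 fibroblast markers the level was 2535 to 3853 CPM in muscle and 119 to 913 in epithelium. The 913 came from epithelium replicate 2, against 154 and 119 in epithelium replicates 1 and 3. Over 6 cartilage markers the level was 747 to 1273 in muscle against 223 to 484 in epithelium. In each of these lists 3 markers passed the test as higher in muscle, and none of the 11 was at 0 in every library of a group. Their part in the Fzd1 and Fzd2 values was not tested. Fewer cells of a type and less RNA per cell cannot be told apart in such bulk samples. Endothelial markers summed to 39.2 to 65.2 CPM in muscle and 1.25 to 55.8 in epithelium, and immune markers to 2.97 to 39.4 and 3.59 to 32.9, with no marker of either list called. Skeletal muscle markers summed to 315 CPM in muscle replicate 1 and to 1.80 to 24.7 in the other 5 libraries, with none called.

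Fzd5, a receptor known from gut and eye development, measured 0.342, 6.79 and 4.90 CPM in muscle and 18.4, 28.2 and 12.2 in epithelium. All epithelial libraries were above all muscle libraries, but muscle replicate 1 held 9 counts while replicates 2 and 3 held 136 and 194. The log2 fold change of -2.29 ± 0.84 did not pass (adjusted p = 0.14), nor did the -1.73 found without muscle replicate 1 (adjusted p = 0.073). Fzd8, its closest relative, measured 1.98, 5.49 and 2.70 CPM in muscle and 6.71, 6.01 and 3.00 in epithelium. The groups overlapped, with a log2 difference of -0.63 ± 0.79 (adjusted p = 0.84). In epithelium replicates 2 and 3, the Fzd8 count was only 6.09 and 7.26 times the mean count of an olfactory or vomeronasal receptor gene. Without the 3 libraries of high background the Fzd8 difference was -1.70. That fit was chosen after seeing the data and rests on a lone epithelial library. The count ratio of Fzd5 to Fzd8 was 0.173, 1.24 and 1.81 in muscle and 2.74, 4.69 and 4.08 in epithelium.

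Fzd4, which binds norrin as well as Wnt ligands, was nearly level between the groups. It measured 23.8, 16.8 and 20.6 CPM in muscle and 23.9, 14.6 and 17.8 in epithelium, with overlapping groups. The log2 fold change was 0.12 ± 0.28 (adjusted p = 0.93) and was -0.13 with library totals alone. Fzd10 was low throughout, at 0.380, 1.95 and 0.303 CPM in muscle (10, 39 and 12 counts) and 2.86, 3.27 and 2.78 in epithelium (154, 49 and 74 counts). The epithelial values were above those of muscle, but the log2 fold change of -1.76 ± 1.38 did not pass (adjusted p = 0.63). In the replicates numbered 2, the Fzd10 count was only 3.64 times (muscle) and 3.31 times (epithelium) the mean count of an olfactory or vomeronasal receptor gene of the same library. The change was -3.10 without muscle replicate 2 (adjusted p = 0.20) and -3.24 without the 3 libraries of high background (adjusted p = 0.062).

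Fzd9 had the widest standard error of the family. It measured 0.532, 3.74 and 1.82 CPM in muscle and 0.409, 5.28 and 0.826 in epithelium, with its highest value in each group in the replicate numbered 2. Its count was 5.34 times the same background mean in epithelium replicate 2 and 2.00 times in epithelium replicate 3. It was above the counts of 98.5% of the olfactory and vomeronasal receptor genes in epithelium replicate 2 and of 84.9% in epithelium replicate 3. Fzd9 stood least clear of the background in epithelium replicate 3, and its level in both libraries is uncertain. The log2 fold change of -0.09 ± 1.46 (adjusted p = 0.99) turned positive in 8 alternative fits.

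Summed over the family, the level was 343, 379 and 588 CPM in muscle and 392, 356 and 291 in epithelium. The groups overlapped, and the ratio of the means was 1.26, or 0.33 on the log2 scale. The log2 ratio was 0.06 with library totals alone and without muscle replicate 3, 0.48 without muscle replicate 1 and 0.54 with counts divided by exon length. Each receptor's share of the summed Frizzled counts is free of such scaling between libraries, but the shares of a library add up to 100%, so one cannot be larger without another being smaller. Fzd1 took 38.0%, 46.9% and 53.8% of the counts in muscle and 26.6%, 32.2% and 25.1% in epithelium. Fzd6 took 0.775%, 2.24% and 0.916% in muscle and 13.1%, 11.7% and 13.1% in epithelium. The Fzd6 share was the steadiest of the large ones across epithelial libraries, with an SD of 0.830 percentage points.

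**Figure D3:**
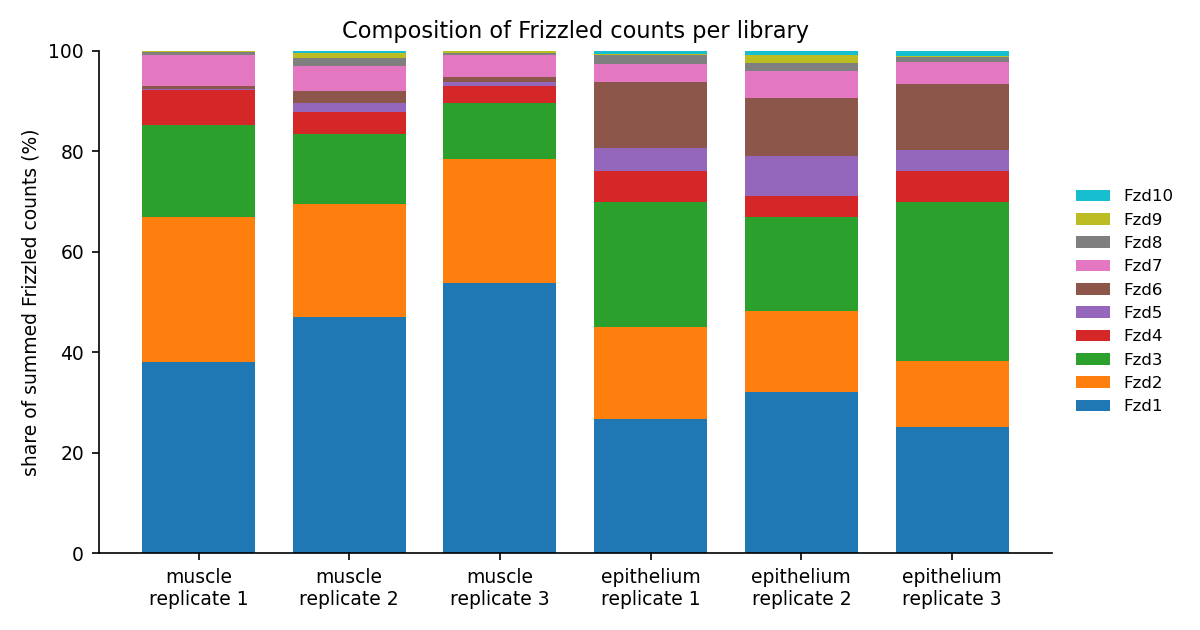
Share (%) of the summed Frizzled counts taken by each receptor in each library, as stacked bars from 0 to 100. Fzd1 is the largest part of 5 of the 6 bars, with Fzd3 larger in epithelium replicate 3, and the Fzd6 part is 11.7% to 13.1% in epithelium and at most 2.24% in muscle.

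Shares were compared for 10 receptors by an exact two-sided permutation test, for which 0.10 is the smallest p that 3 against 3 libraries allow. Muscle had the larger share of Fzd1 (46.2% ± 7.92 against 28.0% ± 3.73, SD) and Fzd2 (25.4% ± 3.22 against 15.8% ± 2.59), each at that exact p of 0.1. Epithelium had the larger share of Fzd3 (25.1% ± 6.36 against 14.5% ± 3.65), Fzd5 (5.60% ± 2.02 against 0.908% ± 0.848), Fzd6 (12.6% ± 0.830 against 1.31% ± 0.808) and Fzd10 (0.868% against 0.225%), also at an exact p of 0.1. In each of these 6 the libraries did not overlap, which alone sets the exact p at its smallest value. The p-values therefore add nothing to the lack of overlap. Shares within the family have no all-gene rate to set beside this count. The shares of Fzd4 (4.95% and 5.44%, exact p = 0.9), Fzd7 (5.20% and 4.46%, exact p = 0.5), Fzd8 (0.828% and 1.48%, exact p = 0.2) and Fzd9 (exact p = 0.9) overlapped. Fzd1, Fzd2 and Fzd7 together took 72.9% to 82.8% of the counts in muscle and 42.7% to 53.4% in epithelium, and Fzd3 with Fzd6 12.1% to 19.2% and 30.5% to 44.7%.

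Within a library, the count of Fzd1 was 49.0, 21.0 and 58.7 times that of Fzd6 in muscle and 2.03, 2.76 and 1.92 times in epithelium. That ratio moved by a factor of less than 3 within each population and by far more between them. The ratio of Fzd1 to Fzd3 was 2.06, 3.37 and 4.81 in muscle and 1.07, 1.71 and 0.794 in epithelium.

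Receptors can be ranked against each other only per length, since a longer transcript gives more reads. Per kilobase of exon, Fzd1 led in muscle at 49.6 ± 23.0 CPM per kb, followed by Fzd2 at 30.0 ± 8.45, and these 2 overlapped. Fzd7 (4.87 ± 0.730) and Fzd3 (4.73 ± 0.539) came next and overlapped each other, then Fzd4 at 3.03 ± 0.516. A gap without overlap lay on either side of the pair and below Fzd4. The other 5 were at or under a mean of 1.14 CPM per kb and overlapped their neighbours in the order Fzd6, Fzd9, Fzd5, Fzd8 and Fzd10.

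In epithelium the order per kilobase of exon began with Fzd1 (23.2 ± 5.18), Fzd2 (15.2 ± 4.61) and Fzd6 (9.06 ± 1.44), each overlapping the next. Fzd3 followed at 6.68 ± 1.26, below every Fzd6 value, then Fzd7 at 3.39, Fzd5 at 2.83 and Fzd4 at 2.79. Fzd9, Fzd10 and Fzd8 came last, at 0.947, 0.915 and 0.878. Fzd6 thus stood directly after Fzd1 and Fzd2 in epithelium and after Fzd4 in muscle. The place of Fzd3 depended on the length used, because its annotated exons span 12804 bases and its coding sequence 1998. Per kilobase of coding sequence, Fzd3 came after Fzd1 (108 CPM per kb) and Fzd2 (64.2) in muscle, at 30.3, below every Fzd2 value. In epithelium the order was Fzd1 (50.5), Fzd3 (42.8), Fzd2 (32.6) and Fzd6 (20.5), and neighbours in this order overlapped. Per exon length, the share of Fzd6 was 1.25% ± 0.768 in muscle and 13.9% ± 1.62 in epithelium, and per coding length 1.14% and 11.2%.

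**Figure D4:**
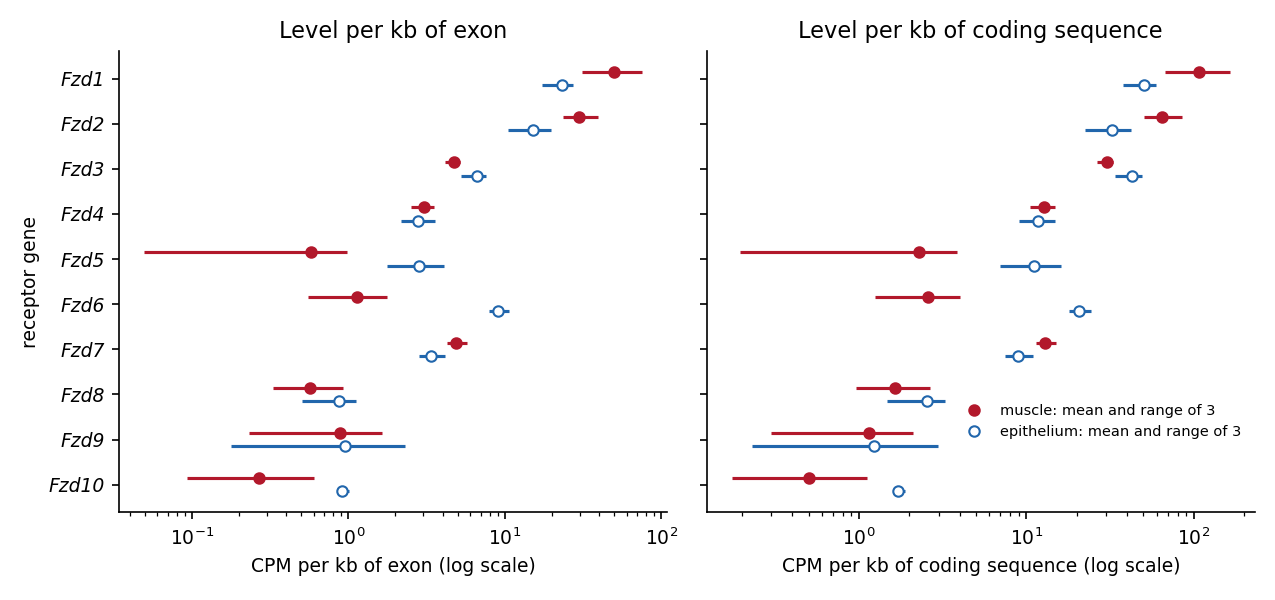
CPM per kilobase of exon (left) and of coding sequence (right) on log axes, as the mean (point) and range (line) of 3 libraries per population. Fzd1 has the highest mean in every case, with a range that overlaps that of the next receptor. Fzd3 moves up in the right panel, from 6.68 to 42.8 CPM per kb in epithelium.

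Correlations over the 6 libraries carry the difference between the 2 populations and their shared depth, and are given as descriptions. Fzd1 and Fzd2 had a Pearson r of 0.91 in log2 CPM, Fzd1 and Fzd7 0.91, Fzd2 and Fzd7 0.88 and Fzd3 and Fzd6 0.70. Fzd6 was opposite to Fzd7 (-0.77) and Fzd2 (-0.76). Each receptor was also compared with 9370 other genes of at least 4 in average log2 CPM. Over 6 libraries the nearest of so many was near 1 for every receptor compared, Fzd4 (0.995) included. Such values alone show no particular link. The pattern of Fzd6 was most like those of Gsr (0.999), Esrp1 (0.998), a splicing factor of epithelial cells, and 1810019J16Rik (0.997). After group means were subtracted, Gsr (0.996), Aig1 (0.995) and Evpl (0.987) were nearest to Fzd6. The nearest to Fzd1 were Klf4 (0.995), Numbl (0.985) and Pbx2 (0.982), and to Fzd2 Ccny (0.998), Slc12a4 (0.994) and Kmt2c (0.988). For Fzd3 they were Troap, Eya3 and Osbpl7 (0.996 to 0.997), for Fzd4 Ikbkap, AU022252 and Fam114a2 (0.990 to 0.995) and for Fzd7 Pcsk5, Auts2 and Pth1r (0.988 to 0.990).

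The ligands that Frizzled proteins bind were measured in the same libraries. Of 19 Wnt genes tested, 0 passed as higher in muscle and 2 as higher in epithelium (background 6.58% and 4.11%), with 17 not passing and a median log2 fold change of -0.69. Wnt7b, known as a signal of the airway epithelium, measured 0.304, 0.599 and 1.31 CPM in muscle and 963, 652 and 421 in epithelium. It was the member with the widest separation (-9.77 ± 0.66, adjusted p = 9.6e-05). Wnt4 was also higher in epithelium (-3.19 ± 0.73, adjusted p = 0.024), a call lost in 7 of 17 alternative fits. Wnt5a, a ligand of Ror2, did not pass (0.86 ± 0.32, adjusted p = 0.14), though it did in 2 of 17 alternative fits. Wnt2, added after its value was seen, fell just short as higher in muscle (2.11, adjusted p = 0.0502). The libraries did not overlap for 4 Wnt genes with muscle above and 3 with epithelium above, against 16.4% and 10.5% of all genes.

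Of 25 co-receptors and regulators of receptor turnover, 5 passed as higher in muscle, 3 as higher in epithelium and 17 did not (all genes 6.58% and 4.11%), with a median of 1.05. Ror2, a receptor kinase with a Frizzled-type domain of its own, measured 83.5, 40.2 and 172 CPM in muscle and 20.0, 20.1 and 8.30 in epithelium (2.61 ± 0.55, adjusted p = 0.016). The others higher in muscle were Shisa3 (4.46), a Frizzled-trapping protein, Gpr124 (3.41) and Reck (1.89), which together serve Wnt7 signalling, and Gpc4 (1.05, adjusted p = 0.017), a glypican named after its value was seen. Lgr5, an R-spondin receptor, was higher in epithelium at 50.2, 41.8 and 40.9 CPM against 3.19, 8.74 and 2.91 in muscle (-3.17 ± 0.45, adjusted p = 0.0025). Shisa2 (-1.82) and Tspan12 (-1.20 ± 0.22, adjusted p = 0.0096), the tetraspanin partner of Fzd4, were higher in epithelium too, although Fzd4 itself did not pass. The call of Shisa2 was lost in 4 of 17 alternative fits. Lrp5 (-1.08, adjusted p = 0.62), Lrp6 (0.52, adjusted p = 0.27), Ryk (0.42, adjusted p = 0.54) and Ptk7 (-0.15, adjusted p = 0.93) did not pass. Nor did the Frizzled-removing ligases Znrf3 (0.21, adjusted p = 0.83) and Rnf43 (-1.30, adjusted p = 0.23), Lgr4 (1.12, adjusted p = 0.088) or Ndp, the gene of norrin (1.75, adjusted p = 0.62). Znrf3 was -0.05 with library totals alone. Rnf43 passed as higher in epithelium in 6 of 17 alternative fits, and Lgr4 as higher in muscle in 1.

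**Figure D5:**
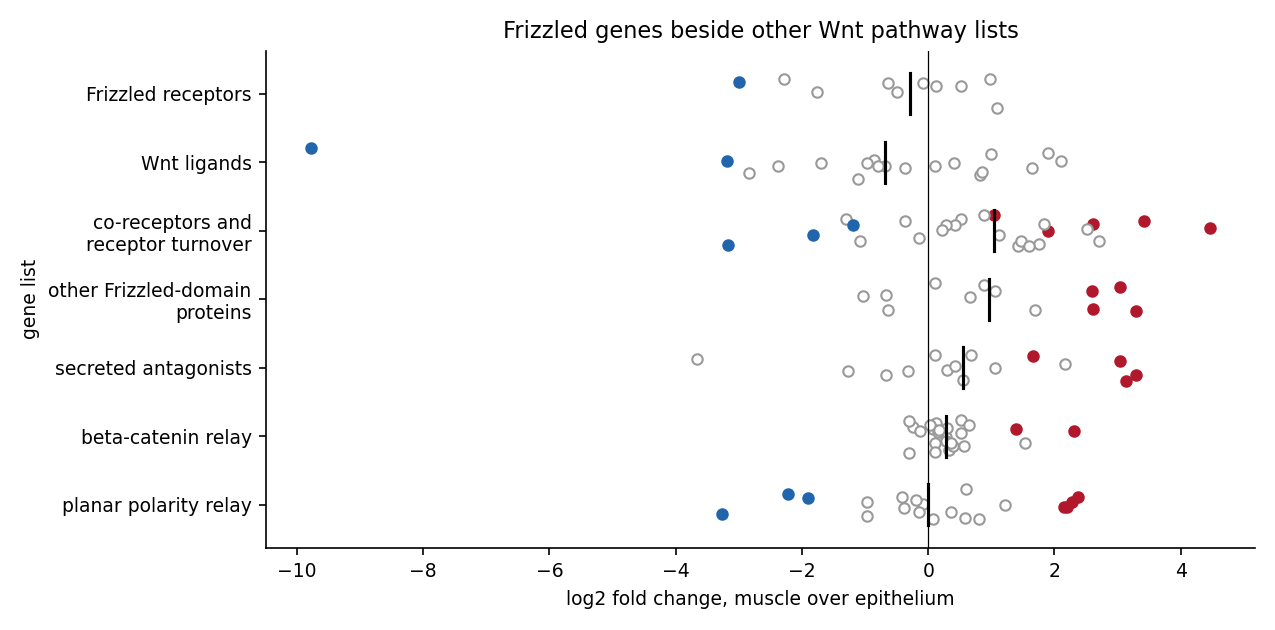
Log2 fold change of muscle over epithelium for each tested gene of 7 lists, with filled points past the adjusted p threshold and a bar at each list's median. The Frizzled list has 1 filled point, Fzd6 at -2.99, and a median of -0.29.

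Other proteins with a Frizzled-type domain, which include secreted decoys, gave 4 calls higher in muscle and 0 higher in epithelium among 12 tested (all genes 6.58% and 4.11%), with 8 not passing and a median of 0.97. Sfrp1, a secreted Frizzled-related protein that binds Wnt ligands, measured 124, 132 and 167 CPM in muscle and 17.5, 23.1 and 10.9 in epithelium (3.04 ± 0.33, adjusted p = 8e-04). Sfrp2 (3.30 ± 0.68, adjusted p = 0.016), Cpz (2.60) and Ror2 were the others. The calls of Sfrp2 and Cpz were each lost in 5 of 17 alternative fits, and that of Ror2 in 3. Smo, the Hedgehog relay protein of the wider family, did not pass (-1.04, adjusted p = 0.12). It passed as higher in epithelium in 5 of 17 alternative fits. Of 15 secreted antagonists, a list that shares the Sfrp genes, 4 passed as higher in muscle (Sfrp1, Sfrp2, Dkk2 at 3.13 and Dkk3 at 1.66) and 0 as higher in epithelium (all genes 6.58% and 4.11%), with 11 not passing and a median of 0.55. The call of Dkk3 was lost in 11 of 17 alternative fits and that of Dkk2 in 7, and Dkk2 was 4.72 without epithelium replicate 2.

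Inside the cell, 2 of 24 genes of the beta-catenin relay passed as higher in muscle and 0 as higher in epithelium, shares near the 6.58% and 4.11% of all genes, with 22 not passing and a median of 0.29. The 2 were the transcription factor genes Tcf7 (2.31, adjusted p = 0.047) and Lef1 (1.40, adjusted p = 0.025), whose calls were lost in 9 and 5 of 17 alternative fits. The Dishevelled genes Dvl1 (-0.31, adjusted p = 0.78), Dvl2 (0.39, adjusted p = 0.55) and Dvl3 (0.16, adjusted p = 0.91) did not pass, and Dvl3 was -0.11 with library totals alone. Of 20 planar polarity genes tested, 4 passed as higher in muscle, 3 as higher in epithelium and 13 did not (all genes 6.58% and 4.11%), with a median of -0.0012.

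Among the planar polarity genes, Celsr1, the cadherin that joins neighbouring cells in the polarity complex with Fzd3 and Fzd6, measured 4.11, 6.19 and 7.58 CPM in muscle and 50.5, 64.5 and 58.0 in epithelium (-3.27 ± 0.30, adjusted p = 0.00043). Celsr2 (-2.22) and Vangl1 (-1.90 ± 0.31, adjusted p = 0.0052), a membrane protein of the same complex, were higher in epithelium as well. Vangl2 did not pass (-0.15 ± 0.37, adjusted p = 0.93). Prickle1 (2.20 ± 0.33, adjusted p = 0.0036), Prickle2 (2.28), Daam2 (2.16) and Dact3 (2.37) were higher in muscle. Their relatives Prickle3 (-0.42, adjusted p = 0.42), Daam1 (0.80, adjusted p = 0.0503), Dact1 (1.22, adjusted p = 0.079) and Dact2 (-0.97, adjusted p = 0.35), added after their values were seen, did not pass. Of the 23 partner genes named above by rule as passing the test, 8 passed in every alternative fit (Celsr1, Daam2, Lgr5, Prickle1, Sfrp1, Tspan12, Vangl1 and Wnt7b), and 15 missed the threshold in 1 to 11 of the 17.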

How the data were processed

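Per the labels' protocols, cells were freed with TrypLE, stained and sorted, RNA was extracted with Trizol, and libraries were made with SMART-Seq v4 and Nextera XT, a chemistry without molecular identifiers or strand. The submitters' processing notes name Trim Galore, Bowtie2, Cufflinks, DESeq and the build mm10; their order, and the counting program and annotation, are not given in the sources used here. The authors deposited whole-number counts per gene symbol; all 6 value columns were used, and every row named a gene. Counts below 20 were even in 73.8% to 79.6% of cases per library, against 49.4% to 50.6% of high counts, so a low count may stand for fewer fragments.

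Genes were filtered with filterByExpr by group (19375 kept, with all 10 Frizzled genes), scaled by TMM (a trimmed mean of log ratios between libraries) and tested two-sided with the quasi-likelihood test of edgeR 4.0.16 in R 4.3.3 (robust fit). P-values were adjusted by Benjamini-Hochberg across the whole table, and 0.05 was the limit for a call. SE is the absolute log2 fold change divided by the root of the F statistic. Alternatives used DESeq2 1.42.0, limma 3.58.1, other filters and scalings, header identifiers, background counts and left-out libraries. Exon lengths and positions come from GENCODE M21 (GRCm38). Gpr124 and Emr1 were matched to newer symbols through RefSeq synonyms; Prickle4 was not matched. The genes named were all 10 receptors, 4 genes that check the sort, up to 4 calls per direction in each Wnt list with average log2 CPM of 2 or more, 20 genes fixed by name, and the 3 genes most like each receptor of at least 4 in average log2 CPM. The members and lists were chosen with earlier results of these data known.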

Additional observations from a re-analysis of the deposited data

How the results depend on the processing

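The number of Frizzled genes called was 1 (Fzd6) in most alternatives, 2 with library totals alone and within the later header identifier (Fzd3 and Fzd6 in both), 2 with background counts as a covariate (Fzd2 and Fzd6), 5 with DESeq2 (Fzd1, Fzd2, Fzd3, Fzd5 and Fzd6), and 1 to 2 when one library was left out, the 2 being without muscle replicate 2. Calls over all genes, 2071, were 3531 with DESeq2, 3178 with the header identifier as a term, 983 at an adjusted p under 0.01, 1323 without muscle replicate 1 and 1169 (without epithelium replicate 3) to 2573 (without muscle replicate 2) when one library was left out. DESeq2 gave Fzd1 0.97 (adjusted p = 0.036), Fzd2 0.85 (0.038), Fzd3 -0.61 (0.0098) and Fzd5 -2.37 (0.048); library totals alone gave Fzd3 -0.75 (0.012), and the covariate gave Fzd2 0.89 (0.033).

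Signs turned for Fzd4 with library totals alone (-0.13), when one library was left out (-0.10 to 0.35) and without the 3 libraries of high background (-0.29), and for Fzd9 with voom (0.98), the replicate block (0.34), the later identifier only (0.86), the identifier as a term (0.46), the covariate (0.75), one library left out (-0.86 to 1.74) and without those 3 libraries (1.34). They also turned for Znrf3 with library totals alone (-0.049), Dvl3 with library totals alone (-0.11), one library left out (-0.13 to 0.41) and without the 3 libraries (-0.20), Ptk7 within the later identifier (0.013) and with one library left out (-0.43 to 0.13), and Vangl2 with one library left out (-0.52 to 0.10). None of these genes passed the test. With one library left out, the share difference in percentage points ran from -1.47 to 0.243 for Fzd4 and from -0.399 to 0.290 for Fzd9, and per exon length from -0.431 to 0.594 for Fzd7 and from -0.994 to 0.500 for Fzd9. The cause was not tested.

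Of 865 pairs of a named gene and an alternative, 754 kept direction and side of the threshold, 66 fell short of it, 22 newly passed it and 23 changed sign. Leaving out epithelium replicate 3 ended 12 partner calls (adjusted p 0.0507 to 0.202), muscle replicate 3 ended 8 (0.0596 to 0.232), epithelium replicate 1 ended 6 (0.0539 to 0.0984), muscle replicate 1 ended 5 (0.0618 to 0.251), and muscle replicate 2 and epithelium replicate 2 ended 3 each (0.0702 to 0.101 and 0.0507 to 0.110).

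With the replicate number as a block, 2418 genes were called, Fzd6 stood at -3.10 (adjusted p = 0.012) and 8 partner calls were missed (Wnt4, Ror2, Reck, Shisa2, Sfrp2, Dkk3, Tcf7 and Prickle2, adjusted p 0.0507 to 0.104). The block gave the summed level a log2 difference of 0.30. Deviations of same-numbered libraries correlated at 0.59, 0.73 and -0.57 over 19375 genes. Over the 4123 genes with the higher average levels they correlated at 0.17, 0.15 and -0.17. Such values cannot decide whether the numbers pair the libraries, because background counts also differed between libraries. No source states a pairing, so the replicate number was left out of the main fit, although the libraries numbered 2 also share a header identifier. Low counts limit Fzd9 and Fzd10 most: DESeq2 gave Fzd10 no adjusted p.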
